A study of Mus musculus with 39 samples.

Results

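Of the 39 libraries in the series, 3 came from tumour cell clones that carry no T cell class: yfp_6883c1, yfp_6883c4 and yfp_7062c3, whose T cell phenotype label reads n.a. They are 3 of the 20 clones and were chosen by that label, not by any measured value. RNA was sequenced from sorted mouse pancreatic tumour cells, with 1 library for each of these clones. Per the labels, C57BL/6 mice received the cells subcutaneously, no treatment was given, and the tumours were taken 3 weeks later. T cell low and T cell high clones were handled in the same way, so every group here shares the strain, the implantation and the absence of treatment. A clone name holds the number of a parent line, then c and a clone number, so yfp_6883c1 and yfp_6883c4 are read as sister clones of one line, and yfp_7062c3 is the one clone of its line in the series. The labels give neither the genotype of the tumour cells nor the age of the mice, and they do not say which host cells a sorted sample still held.

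Clones grown out of one mouse pancreatic tumour can draw different numbers of T cells when they are put back into mice, and the labels T cell low and T cell high name the ends of that range. Carcinoma cells of the pancreas range from an epithelial form, held together by E-cadherin, keratins and tight junction proteins, to a mesenchymal form that has lost much of that set. T cells see tumour cells through MHC class I molecules, which carry peptides cut by the proteasome and moved by the TAP transporter, and interferon raises the genes of this route. Cells short of amino acids or under stress in the endoplasmic reticulum make the transcription factor ATF4, which turns on genes for amino acid synthesis.

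The libraries of the series fell into 2 kinds by the summed level of the heart muscle genes Myh6, Myh7, Myl2 and Mb, in counts per 1000000 counts of a library (CPM). The sum was 2123 CPM in yfp_6883c1 and 3780 CPM in yfp_6883c4, and 0.02677 CPM in yfp_7062c3. Albumin, a liver product, moved with it, at 2886 CPM in yfp_6883c1, 5895 CPM in yfp_6883c4 and 0.0803 CPM in yfp_7062c3. In all, 19 libraries had at least 10 CPM of the heart genes (151.9 to 4893 CPM) and 20 had less (at most 0.2353 CPM). Of the heart-bearing libraries 18 have tumour number 1 in their titles, and yfp_7062c3 is the one library with that number among the heart-free ones. Each clone without class was therefore compared only with clones in libraries of its own kind, 8 T cell low and 6 T cell high clones in each, with the counts of a clone summed. Heart sums in the heart-bearing T cell low libraries had a lowest, median and highest value of 151.9, 1954 and 4893 CPM, and those of the T cell high libraries of 2553, 4656 and 4872 CPM, so yfp_6883c1 and yfp_6883c4 lay inside the range of the low libraries and yfp_6883c1 below that of the high libraries. Totals were 37543582 counts in yfp_6883c1, 28168061 in yfp_6883c4 and 37360042 in yfp_7062c3, within the range of 7638130 to 103794674 over the series.

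All 3 libraries held transcripts of epithelial genes, and the part of liver RNA in them was not tested. Krt8, a keratin of simple epithelia, stood at 1149 CPM in yfp_6883c1, 1987 CPM in yfp_6883c4 and 2400 CPM in yfp_7062c3. Cdh1, which encodes E-cadherin, was at 274, 534 and 429 CPM in the same order. Cd3e, a part of the T cell receptor complex, was at 0.752 CPM in yfp_6883c1, 0.855 CPM in yfp_6883c4 and 0 in yfp_7062c3, which allows up to 0.0803 CPM (3 counts). The general leukocyte gene Ptprc was at 17.6, 26.1 and 7.81 CPM, so some leukocyte RNA was present in all 3. In bulk RNA, fewer cells of a type and less RNA per cell cannot be told apart.

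The likeness of libraries was described by Pearson's r over log2(CPM + 1) of the genes tested, 20008 in the heart-bearing and 18413 in the heart-free libraries. These points are genes that share libraries and depth, so no p-value is given. The library most like yfp_6883c1 was that of its sister yfp_6883c4 (r = 0.9782), followed by the T cell high clone yfp_2838c3 (0.9753) and the T cell low clone yfp_6419c1 (0.9744). The reverse did not hold: yfp_6883c4 was most like yfp_6419c1 (0.9943) and the T cell high clone yfp_6620c1 (0.9942), and its sister stood at rank 14 of 18. The libraries with a heart sum over 4000 CPM (4262 to 4893 CPM) all had a higher r with yfp_6883c4 (0.9926 to 0.9943) than any other library. The heart sum was 3780 CPM in yfp_6883c4 and 2123 CPM in its sister. The part of heart and liver RNA in this ranking was not tested. Over the 130 pairs of classified heart-bearing libraries from different lines r reached 0.997, against a highest value of 0.9785 over the 161 such pairs of heart-free libraries. Heart-bearing libraries of unrelated clones thus resembled each other closely, and the spread between them, on which every test of yfp_6883c1 and yfp_6883c4 below rests, may not be the spread between clones.

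For yfp_7062c3, the nearest library was tumour 2 of the T cell high clone yfp_6556c4 (r = 0.9905). That value was above all 161 pairs of classified heart-free libraries from different lines (0.916 to 0.9785, median 0.9524). It lay inside the range of the 4 pairs from one clone (0.973 to 0.9938), all of them from yfp_2699c4 or yfp_2838c3. It was above the range of the 6 pairs of sister clones (0.958 to 0.9876). The T cell low clones yfp_6694c2 (0.982) and yfp_6556c3 (0.9766) came next. Counts of yfp_7062c3 and yfp_6556c4 tumour 2 still differed far beyond sampling noise, with a chi-square per degree of freedom of 54.61. Tumour 1 of yfp_6556c4, which is heart-bearing, had the lowest r with yfp_7062c3 of any library (0.8922).

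**Figure D1:**
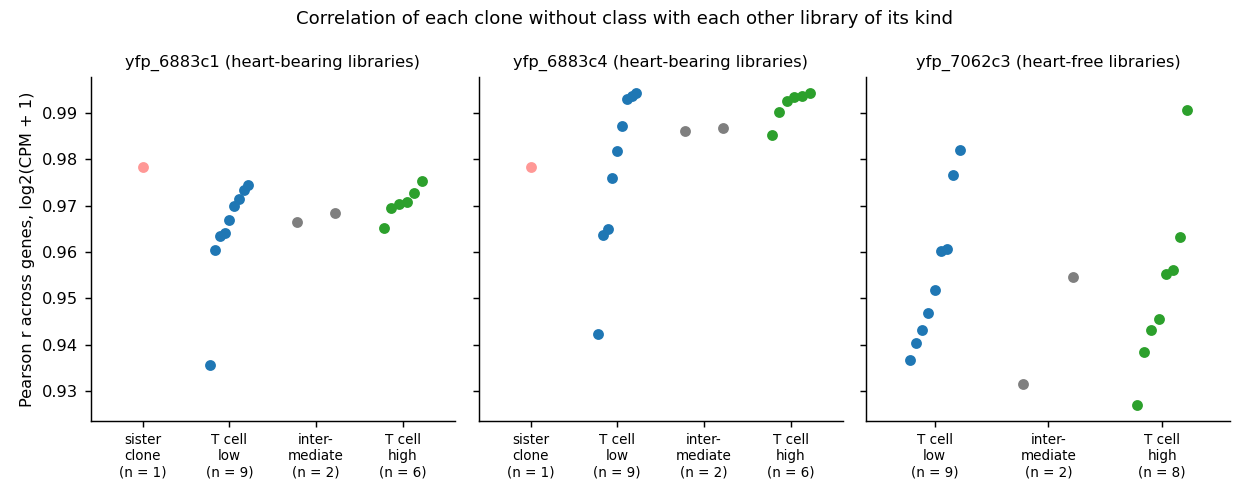
Pearson's r over log2(CPM + 1) between each clone without class and every other library of its kind, one point per library, grouped by sister clone and T cell class. The library of yfp_6883c4 reaches 0.9943, yfp_6883c1 reaches 0.9782 with its sister, and yfp_7062c3 stands at 0.9905 with yfp_6556c4 tumour 2.

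In yfp_6883c1, 345 of 20008 genes rose (1.72%) and 31 fell (0.155%) against the T cell low clones by edgeR's quasi-likelihood test at a Benjamini-Hochberg adjusted p under 0.05. At an unadjusted p under 0.05, 1507 genes were higher (7.53%) and 909 lower (4.54%), and 2956 lay above every low clone (14.8%). The genes described first are those of smallest p in each direction. Each value for a class is the lowest, median and highest over its clones, and each difference is a log2 fold change ± SE. Since yfp_6883c1 is 1 library, the SE assumes that it varies like the classified clones do.

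Dnm1, the dynamin of synaptic vesicle uptake, was at 161 CPM in yfp_6883c1 and at 9.81, 14.1 and 15.2 CPM in the T cell low clones, a difference of 3.65 ± 0.22 (adjusted p = 4.87e-07). Nav3, a microtubule-bound protein of growing nerve cells, was at 66.9 CPM against 4.89, 7.53 and 11.4 CPM (3.16 ± 0.30, adjusted p = 8.31e-05). Syt13, an atypical synaptotagmin, was at 173 CPM against 1.63, 9.28 and 12.9 CPM (4.28 ± 0.46, adjusted p = 0.000214). For all of these genes yfp_6883c1 lay above every low clone. The cell surface genes Pcdh19, a protocadherin, and Slitrk5, which organises synapses, were at 162 and 12.6 CPM in yfp_6883c1, and the low clones ranged over 2.05 to 11.6 CPM for Pcdh19 and 0.0103 to 0.369 CPM for Slitrk5. Of the secreted products, Edil3, an integrin-binding matrix protein, was at 91.5 CPM against 2.61, 4.55 and 9.33 CPM (4.24 ± 0.40, adjusted p = 8.31e-05). Scube3 was at 25.6 CPM against 0.298, 0.764 and 2.07 CPM (4.84 ± 0.46). Col6a1, a chain of collagen VI, was at 1127 CPM against 269, 327 and 366 CPM (1.79 ± 0.19, adjusted p = 0.000213). Pla2g7, which breaks down platelet-activating factor, was at 298 CPM against 41.9, 69.1 and 81.5 CPM (2.15 ± 0.24). Fibroblast genes are relevant beside collagen: their sum was 6268 CPM in yfp_6883c1 and 929, 3414 and 8187 CPM in the low clones, above the median and inside the range, and the part of other cells in these differences was not tested.

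The genes that fell in yfp_6883c1 include transcription factors and junction proteins of epithelia. Hnf4a, a transcription factor of liver, gut and pancreatic epithelium, was at 129 CPM in yfp_6883c1 and at 227, 304 and 338 CPM in the low clones (-1.20 ± 0.23, adjusted p = 0.013). Cxadr, a tight junction protein that serves as a virus receptor, was at 86.2 CPM against 200.2, 259 and 304 CPM (-1.55 ± 0.27, adjusted p = 0.0066). Gata4, an endoderm transcription factor, was at 24.9 CPM against 42.7, 49.5 and 58.1 CPM (-1.01 ± 0.21, adjusted p = 0.0213). Each of these lay below all 8 low clones in yfp_6883c1. They were picked by small p in this direction, and the share of all genes below every low clone was not counted. Below every T cell high clone lay 28.7% of all genes tested in yfp_6883c1. The position below the low clones is therefore not read as a result about these genes. Hnf4a is also a liver gene, and the liver list summed to 7262 CPM in yfp_6883c1 and to 646, 7890 and 16510 CPM in the low clones. The low clone with the least heart RNA, yfp_6499c3 at 151.9 CPM, had 324 CPM of Hnf4a. The part of liver RNA in the Hnf4a difference was not tested.

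The rest of the genes picked by rank had the same position, with the same limit on how it is read. Myrf, a membrane-bound transcription factor, was at 154 CPM in yfp_6883c1 against 354 to 578 CPM in the low clones. Palmd, an actin regulator, was at 68.5 CPM against 127 to 184 CPM. The surface protein gene Cd24a was at 107 CPM against 270.3 to 512 CPM. Lsr, a protein of the corners where epithelial cells meet, was at 33 CPM against 60.9 to 102 CPM. Perp, a desmosome protein and p53 target, was at 43.3 CPM against 66.7 to 125 CPM. Fgd3, an activator of a small GTPase, was at 36.9 CPM against 56.5 to 67.5 CPM. Tert, the catalytic part of telomerase, was at 3.12 CPM against 7.96 to 16 CPM. Adjusted p for these 7 genes ran from 0.00905 for Myrf to 0.0292 for Perp.

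**Figure D2:**
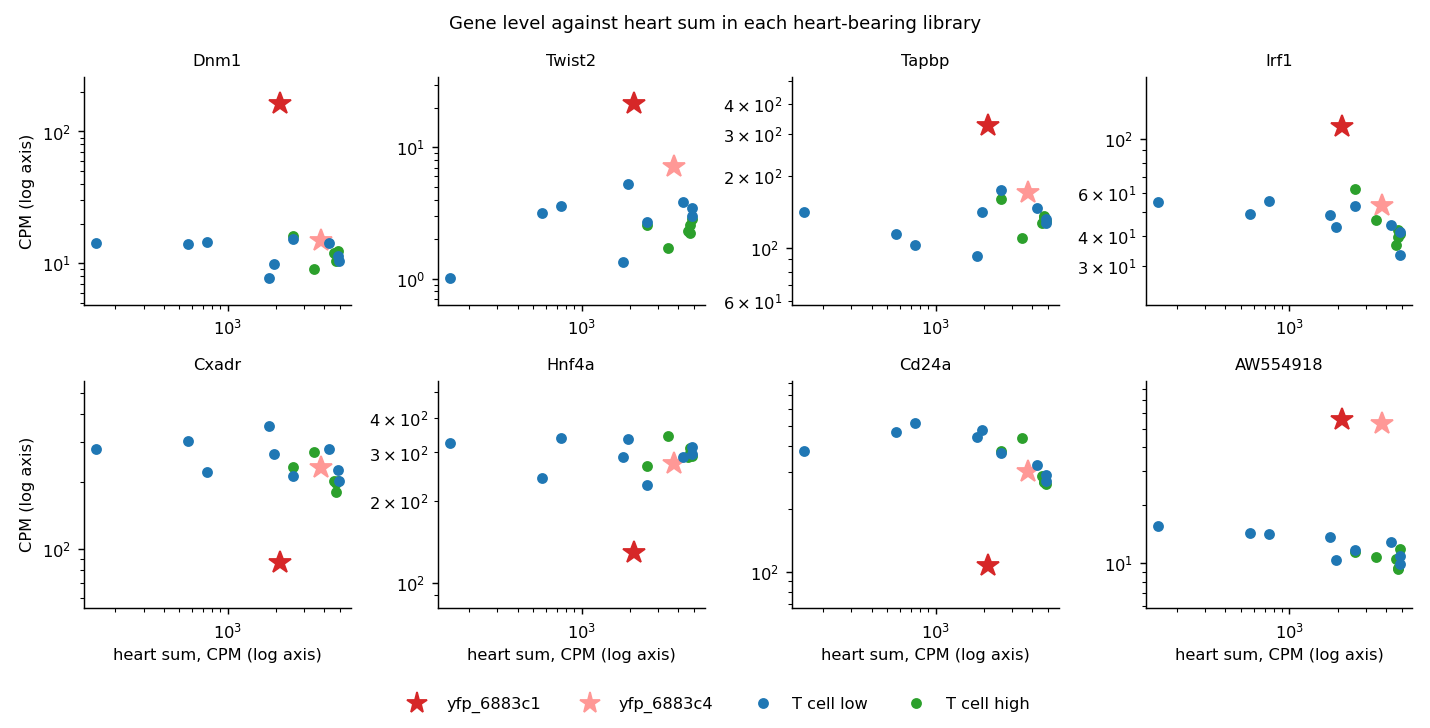
Level in CPM of 8 genes (vertical, log axis) against the summed heart genes in CPM (horizontal, log axis), 1 point per heart-bearing library, with stars for yfp_6883c1 and yfp_6883c4, blue for T cell low and green for T cell high. In yfp_6883c1 Hnf4a (129 CPM), Cxadr (86.2 CPM) and Cd24a (107 CPM) stand below every classified clone, and Dnm1 (161 CPM) and Twist2 (21.3 CPM) above every one, at a heart sum of 2123 CPM.

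Genes of antigen presentation by MHC class I stood high in yfp_6883c1. Of the 13 genes of that list, 4 rose against the low clones and none fell, where 1.72% of all genes tested rose and 0.155% fell. The median difference over the list was 1.27, against -0.07 over all genes tested, and 10 of the 13 lay above every low clone, as 14.8% of all genes tested did. Erap1, which trims peptides for class I, was at 73.4 CPM in yfp_6883c1 and 31.2, 35 and 43.5 CPM in the low clones (1.02 ± 0.17, adjusted p = 0.00415). Tapbp, which holds empty class I molecules at the transporter, was at 323 CPM against 103, 137 and 176 CPM (1.27 ± 0.21, adjusted p = 0.00455). Tap2, a subunit of that transporter, was at 61.8 CPM against 5.24, 13.4 and 21.1 CPM (2.25 ± 0.43, adjusted p = 0.0125). Psmb10, a subunit of the immunoproteasome, was at 64.6 CPM against 23.1, 28.4 and 48.5 CPM (1.10 ± 0.27, adjusted p = 0.0457).

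The class I heavy chains themselves did not pass the threshold. H2-D1 was at 978 CPM in yfp_6883c1 and 326, 559.7 and 901 CPM in the low clones (0.85 ± 0.35, adjusted p = 0.331). H2-K1 was at 895 CPM against 175, 276 and 865 CPM (1.34 ± 0.52, adjusted p = 0.284). Their light chain B2m was at 885 CPM against 169, 336 and 1036 CPM (1.12 ± 0.57, adjusted p = 0.466). Reads of the H2 genes can be shared among near-identical family members, so their counts are uncertain.

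Interferon response genes stood high in the same library. Of 22 genes, Irf1, a transcription factor induced by interferon gamma, rose, at 112 CPM in yfp_6883c1 and 36.6, 46.6 and 55.5 CPM in the low clones (1.24 ± 0.23, adjusted p = 0.00997). Among all genes tested 1.72% rose. The list median was 1.51, 12 of the 22 had an unadjusted p under 0.05 in the higher direction (7.53% of all genes tested), and 15 lay above every low clone (14.8% of all genes). Lists of leukocyte genes were set beside these. The general leukocyte list summed to 175 CPM in yfp_6883c1 and 138, 308 and 618 CPM in the low clones, and 0 of its 10 genes lay above every low clone. The macrophage list summed to 1894 CPM, below the lowest low clone (2067, 3380 and 4852 CPM), and its gene Cd14, a lipopolysaccharide co-receptor, fell (70.0 CPM in yfp_6883c1 and 139.8, 179.6 and 258 CPM in the low clones, -1.42 ± 0.33, adjusted p = 0.0369). MHC class II genes, which macrophages carry, summed to 309 CPM in yfp_6883c1 and 202, 392 and 1005 CPM in the low clones, with none of 7 called. The part of leukocyte RNA in the interferon and class I values was not tested.

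**Figure D3:**
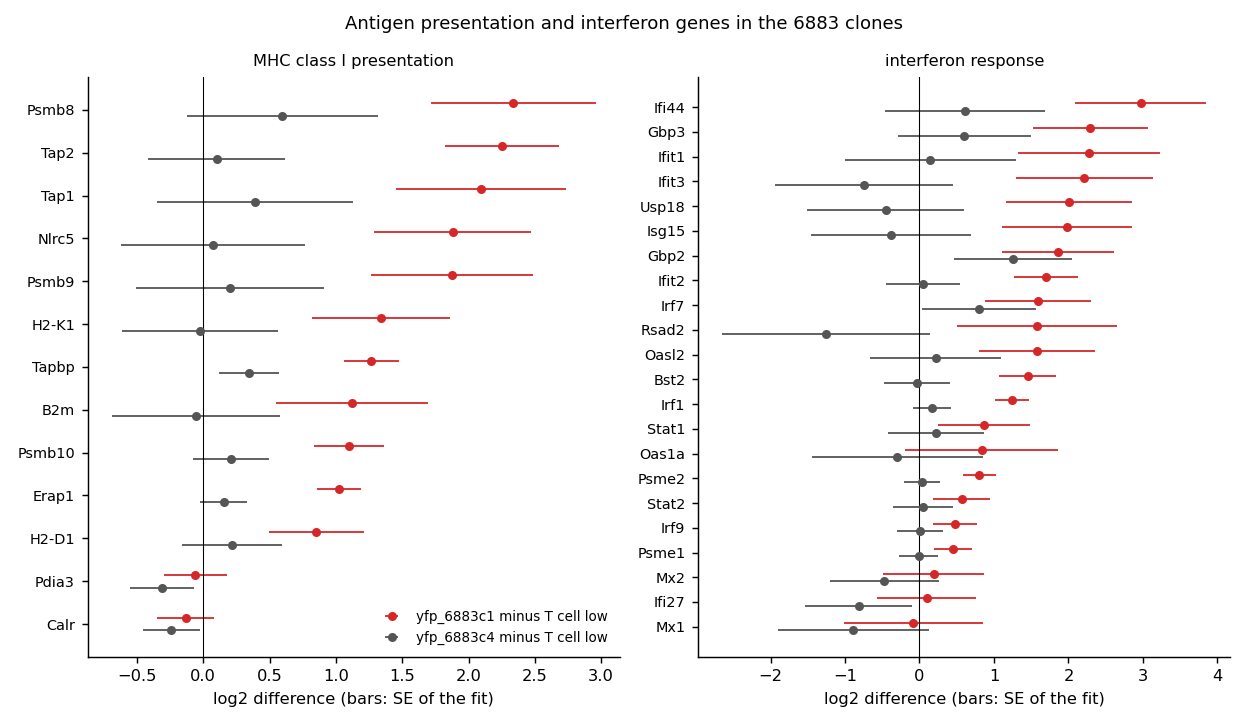
Log2 difference from the T cell low clones (horizontal; bars are the SE of the fit) for the MHC class I and interferon response lists, 1 row per gene, with yfp_6883c1 in red and yfp_6883c4 in grey. For yfp_6883c1 most genes lie right of 0, with list medians of 1.27 and 1.51, while for yfp_6883c4 they scatter about 0, with medians of 0.16 and 0.02.

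The epithelial and mesenchymal lists lay on opposite sides of 0 in yfp_6883c1, with few genes called. None of the 20 epithelial genes passed the adjusted threshold, 8 had an unadjusted p under 0.05 in the lower direction (4.54% of all genes tested), and the list median was -0.83. Cdh1 was at 274 CPM in yfp_6883c1 and 489, 665 and 1126 CPM in the low clones (-1.39 ± 0.44, adjusted p = 0.16), and the desmosome gene Dsp at 174 CPM against 193, 376 and 418 CPM. Krt18, the partner of Krt8, was at 1180 CPM against 1245, 1929 and 3010 CPM (-0.81 ± 0.34, adjusted p = 0.339). Of 16 mesenchymal genes, 2 rose, as did 1.72% of all genes tested. The list median was 0.63, against -0.065 over all genes tested. Twist2, a transcription factor of mesenchyme, was at 21.3 CPM in yfp_6883c1 and 1.01, 3.28 and 5.28 CPM in the low clones (2.74 ± 0.42, adjusted p = 0.00283). Tgfbi, a matrix protein induced by TGF-beta, was at 559 CPM against 44.8, 98.8 and 183 CPM (2.37 ± 0.41, adjusted p = 0.00675). The related factor Zeb1 was at 116 CPM against 48.8, 55.5 and 95.2 CPM, above every low clone, with an adjusted p of 0.136.

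Fibroblast markers bear on the mesenchymal list. Pdgfra and Pdgfrb, receptors of connective tissue cells, both rose, at 148 CPM in yfp_6883c1 against 9.86, 34.4 and 48.8 CPM in the low clones (2.37 ± 0.51, adjusted p = 0.0242) and at 260.2 CPM against 11.8, 61.1 and 67.8 CPM (2.38 ± 0.48, adjusted p = 0.0175). Both are on the fibroblast list, on which 2 of 10 genes rose, as did 1.72% of all genes tested. On that list 4 genes lay above every low clone (14.8% of all genes). The list median was -0.07, so its members lay on both sides of 0. Col3a1, a fibroblast collagen, was at 4335 CPM in yfp_6883c1 and 226, 1294 and 3332 CPM in the low clones, and was not called (adjusted p = 0.36). The part of fibroblast RNA in Twist2, Tgfbi and the collagens was not tested.

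Single members of other lists were called in yfp_6883c1 against the low clones. Notch2, a Notch receptor, rose (606 CPM in yfp_6883c1 and 227, 259 and 384 CPM in the low clones, adjusted p = 0.0255), as did Spry1, a feedback inhibitor of receptor kinase signalling (94.1 CPM against 32.4, 37.3 and 49.6 CPM, adjusted p = 0.00499). Egfr, the receptor of epidermal growth factor, rose (258 CPM against 68.5, 102 and 137 CPM, adjusted p = 0.0142). Among p53 targets the receptor gene Eda2r rose (13.3 CPM against 0.154, 1.55 and 2.8 CPM, adjusted p = 0.0186) while Perp fell. The chemokine gene Ccl20, which draws cells carrying CCR6, fell to 0.188 CPM in yfp_6883c1, against 1.06, 2.36 and 4.64 CPM in the low clones (-3.75 ± 0.90, adjusted p = 0.0439). It is one of 16 genes for myeloid attractants and growth factors, whose median was -1.68 with 5 at an unadjusted p under 0.05 in the lower direction, as were 4.54% of all genes. Prss2, a trypsinogen of acinar cells, rose at a low level (2.9 CPM in yfp_6883c1 against 0.0835, 0.171 and 0.309 CPM, adjusted p = 0.000319). The NRF2 and glutathione list had a median of -0.92 and the glycolysis and hypoxia list one of -0.64, with none of 14 and of 19 genes called and 6 of each at an unadjusted p under 0.05 in the lower direction, beside the same 4.54% of all genes.

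Against the 6 T cell high clones, 293 genes rose in yfp_6883c1 (1.46%) and 13 fell (0.065%). This comparison shares the library of yfp_6883c1 with the one above, so their values are set side by side and neither supports the other. Dnm1 was at 161 CPM in yfp_6883c1 and 9.05, 11.9 and 16 CPM in the high clones (3.75 ± 0.23, adjusted p = 8.2e-07). Edil3 was at 91.5 CPM against 2.68, 4.95 and 6.21 CPM (4.23 ± 0.43). Nav3 was at 66.9 CPM against 5.82 to 9.04 CPM. Neto2, an auxiliary subunit of glutamate receptors, was at 120.2 CPM against 8.28, 10.4 and 11.7 CPM (3.56 ± 0.37, adjusted p = 0.000226). Hnf4a was at 129 CPM in yfp_6883c1 and 267, 295 and 343 CPM in the high clones (-1.22 ± 0.23, adjusted p = 0.0167). Fgd3, Palmd and Cxadr fell as well, and so did Mboat1, a phospholipid acyltransferase (75.5 CPM against 117, 141 and 147 CPM, -0.87 ± 0.17, adjusted p = 0.0209). In yfp_6883c1 each of these genes lay outside the range of the high clones.

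Of all genes tested in yfp_6883c1, 293 rose against the high clones (1.46%). Above every high clone lay 5521 (27.6%) and below every one 5740 (28.7%). The calls and positions of list members are read beside these shares. Erap1 (1.11 ± 0.17), Tapbp (1.28 ± 0.21), Tap2 (1.98 ± 0.46) and Psmb10 (1.33 ± 0.27) of the class I list rose, with a list median of 1.61 and 11 of 13 above every high clone. Of the interferon list, 4 of 22 rose, with a median of 1.93 and 21 above every high clone. They were Irf1 (1.32 ± 0.23), the tetherin gene Bst2 (109 CPM in yfp_6883c1 and 25.2, 30.4 and 31.6 CPM in the high clones, 1.89 ± 0.39), Ifit2 (28.4 CPM against 5.75, 6.29 and 9.5 CPM, 2.06 ± 0.44) and the proteasome activator Psme2 (105 CPM against 48.2 to 64.9 CPM, 1.0 ± 0.22). Cxcl10, a T cell attractant, rose (28.5 CPM against 2.31, 3.37 and 8.62 CPM, 2.72 ± 0.64, adjusted p = 0.0441). Against the low clones Cxcl10 had a difference of 2.03 ± 0.64 and an adjusted p of 0.15. Timp2, a metalloproteinase inhibitor, rose (1056 CPM against 554, 565 and 589.9 CPM), and so did the mitotic kinase Aurkb (43.4 CPM against 18.6, 20.4 and 25.4 CPM) and Vps54, a part of the vesicle tether GARP (66.9 CPM against 38.9, 41.2 and 45.5 CPM). All 20 epithelial genes lay below every high clone, with a median of -1.24 and none called. The heart sum of yfp_6883c1, 2123 CPM, and its liver list, 7262 CPM, were also below all high clones (heart 2553 to 4872 CPM, liver list 9699, 15640 and 17280 CPM), and the part of this difference in the epithelial values was not tested.

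Calls in yfp_6883c1 depended on which clones it was set against. With only the clones whose heart sum was under 4000 CPM, a limit chosen after seeing the data, 22 genes were called against the low clones, all of them among the 376 called with all clones. Dnm1, Nav3, Edil3, Scube3, Pcdh19, Syt13 and Slitrk5 were among the 22, while Hnf4a (-1.24, adjusted p = 0.314), Tap2 (2.48, 0.178), Irf1 (1.07, 0.186) and every other gene named as lower were not. Against the high clones that limit leaves 2 clones, and edgeR called 0 genes, with 872 at an unadjusted p under 0.05. Leaving out the low clone yfp_6694c2 raised the count of 376 against the low clones to 629. Leaving out 1 high clone lowered the count of 306 against the high clones to 167 without yfp_6499c4, 168 without yfp_6555c3, 176 without yfp_6556c4 and 187 without yfp_6620c1. With DESeq2, 461 genes were higher and 213 lower against the low clones, so the share of higher calls was 68.4% there and 91.8% with edgeR.

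In the sister clone yfp_6883c4 a single gene passed the threshold. Its library held 3780 CPM of the heart genes and 5895 CPM of albumin. Whether this RNA narrowed its differences from the other heart-bearing libraries was not tested, so the few calls are not read as a trait of the clone. Of 20008 genes, 1 rose against the low clones (0.005%) and 0 fell (0.0%) by edgeR's test. At an unadjusted p under 0.05, 237 were higher (1.18%) and 123 lower (0.615%), DESeq2 called 5 and limma 5. Against the high clones 1 gene rose (0.005%) and 0 fell (0.0%), with 160 higher (0.8%) and 115 lower (0.575%) at an unadjusted p under 0.05, while DESeq2 called 6 and limma 4. Without the low clone yfp_6419c1 edgeR called 4 genes against the low clones, and 2 without yfp_6499c3 or without yfp_6694c2. The one gene was AW554918, whose role is not described in the sources used here. It was at 52.9 CPM in yfp_6883c4 and 55.4 CPM in yfp_6883c1, at 9.92, 12.3 and 15.6 CPM in the low clones and at 9.33, 10.7 and 11.8 CPM in the high clones. The difference from the low clones was 2.07 ± 0.20 in yfp_6883c4 (adjusted p = 0.000631) and 2.14 ± 0.20 in yfp_6883c1 (adjusted p = 8.31e-05), and that from the high clones 2.32 ± 0.21 in yfp_6883c4 (adjusted p = 0.000189). Both sister clones thus stood above all 14 classified clones.

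The genes next in rank in yfp_6883c4 did not pass. Isx, an intestinal homeobox factor, was at 5.06 CPM in yfp_6883c4 and 0, 0 and 0.17 CPM in the low clones (adjusted p = 0.0871). Npy4r, a neuropeptide receptor, was at 10.7 CPM against 1.4, 2.41 and 4.93 CPM (adjusted p = 0.495). Zfhx4, a zinc finger homeobox factor, was at 30.5 CPM against 1.71, 6.53 and 10.5 CPM. Ush1c, a scaffold of microvilli, was at 9.34 CPM against 0.0205, 0.371 and 0.937 CPM. Against the high clones, Tubb3, a tubulin typical of nerve cells, was at 35.4 CPM against 7.02, 8.13 and 11.6 CPM and Neto2 at 31 CPM against 8.28, 10.4 and 11.7 CPM. Each of these genes lay above every clone of the class named. They were picked by small p in this direction, and the share of all genes in that position was not counted for yfp_6883c4. In its sister yfp_6883c1, 14.8% of all genes lay above every low clone and 27.6% above every high clone. The position is therefore not read as a result about these genes. On the lower side against the low clones stood Fkbp10, a collagen chaperone (29.5 CPM in yfp_6883c4 and 44.5, 58.4 and 86.8 CPM in the low clones, adjusted p = 1), and Ptgs2, the inducible cyclooxygenase (43.8 CPM against 59, 108 and 193 CPM, adjusted p = 1). Also there were the nuclease gene Dnase2a (19.8 CPM against 24.5 to 30.8 CPM), the splicing factor gene Isy1 (31.4 CPM against 37.2 to 58.5 CPM) and Ppp1r3b, a glycogen-targeting phosphatase subunit (17.6 CPM against 27.1 to 44.9 CPM). Against the high clones the lower genes by rank were Ppp1r3b, Fkbp10, the glycolytic regulator Pfkfb4 (7.73 CPM against 9.36 to 18.7 CPM), the transcription factor subunit Brf2 (9.41 CPM against 11.4 to 14.8 CPM) and Limd1 (95.8 CPM against 111 to 127 CPM).

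No member of any of the 43 gene lists was called in yfp_6883c4 in either comparison. The class I list had medians of 0.16 against the low and 0.24 against the high clones, the interferon list 0.02 and 0.31, and the epithelial list 0.12 and -0.22, where the medians over all genes were -0.04 and -0.02. Prss2, called in yfp_6883c1, was at 1.5 CPM in yfp_6883c4, with an adjusted p of 0.0822 against the low clones. Macrophage genes summed to 3428 CPM in yfp_6883c4 and fibroblast genes to 3111 CPM, both inside the ranges of the low clones. The part of heart and liver RNA in these list values was not tested.

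Set directly against each other, the sister clones differed in many genes, with 1 library each and hence no replicate check and no test. Of 12257 genes with at least 5 CPM in either library, 609 were at least 2-fold higher in yfp_6883c1 (4.97%) and 475 at least 2-fold lower (3.88%), after adding 0.5 CPM to each value. Nefl, a neurofilament, was at 13.92 CPM in yfp_6883c1 and 0.0684 CPM in yfp_6883c4. Syt13 was at 173 and 9.24 CPM. Dnm1 was at 161 CPM in yfp_6883c1 and 14.7 CPM in yfp_6883c4, Nav3 at 66.9 and 13.4 CPM. Tap2 was at 61.8 and 13.9 CPM. On the other side, Reg3b, an antimicrobial lectin of gut and pancreas, was at 3.39 CPM in yfp_6883c1 and 47 CPM in yfp_6883c4. Prom1, a protein of epithelial membrane protrusions, was at 28.4 CPM in yfp_6883c1 and 297 CPM in yfp_6883c4. Hnf4a was at 129 and 273 CPM. These pair values were chosen after they were seen. In yfp_6883c4 Dnm1, Syt13 and Tap2 lay inside the range of the low clones and Nav3 just above it (4.89 to 11.4 CPM), whereas AW554918 was above every classified clone in both sisters.

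In yfp_7062c3 no gene passed the adjusted threshold. Against the 8 heart-free T cell low clones edgeR called 0 genes higher (0.0%) and 0 lower (0.0%) of 18413, with a smallest adjusted p of 0.315. At an unadjusted p under 0.05, 744 were higher (4.04%) and 756 lower (4.11%), and DESeq2 called 20 higher and 83 lower. Against the 6 high clones edgeR again called 0 higher (0.0%) and 0 lower (0.0%), with a smallest adjusted p of 0.706, while 395 were higher (2.15%) and 677 lower (3.68%) at an unadjusted p under 0.05 and DESeq2 called 3 higher and 21 lower. The values that follow therefore describe 1 library beside the range of the classified clones. Of all genes, 2626 lay above every low clone (14.3%) and 2916 below every one (15.8%), 2924 above every high clone (15.9%) and 3449 below every one (18.7%). The 5 higher genes of smallest p were Htra3, Ercc1, Chac1, Akirin2 and Rin1 against the low clones and Psat1, Atf5, Mthfd2, Slc25a33 and Ercc1 against the high clones.

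Chac1, Psat1, Atf5, Mthfd2 and Slc25a33 lay above every T cell low and T cell high clone in yfp_7062c3, and none of them passed the adjusted threshold. Chac1, which degrades glutathione and is induced by ATF4, was at 21.2 CPM in yfp_7062c3, at 2.44, 4.12 and 6.05 CPM in the low clones and at 3.06, 4.71 and 9.48 CPM in the high clones (2.37 ± 0.46 against low, unadjusted p = 0.000125, adjusted p = 0.476). Psat1, an enzyme of serine synthesis, was at 284 CPM against 85.9, 119 and 149 CPM in the low and 61.1, 77.2 and 137 CPM in the high clones (1.70 ± 0.32 against high, adjusted p = 0.706). Atf5, a relative of ATF4, was at 250.5 CPM against 32.5, 56.8 and 83 CPM in the low and 32.5, 44 and 107 CPM in the high clones (2.28 ± 0.45 against high, adjusted p = 0.706). The nearest clone was yfp_6556c4, at 107 CPM. Mthfd2, a mitochondrial folate enzyme, was at 185 CPM against 29.5, 48.8 and 68.5 CPM in the low and 27.3, 44.1 and 76.8 CPM in the high clones. Slc25a33, a carrier of pyrimidine nucleotides, was at 17.5 CPM against 4.59 to 9.71 CPM in the low and 4.25 to 8.2 CPM in the high clones.

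Asns, Trib3, Atf4 and Ddit3, which are linked to the ATF4 response, were chosen after their values were seen. Asns, which makes asparagine, was at 168 CPM in yfp_7062c3, at 23.8, 45.6 and 77.7 CPM in the low clones and at 26.2, 69.5 and 75.2 CPM in the high clones. Trib3, a pseudokinase that restrains ATF4, was at 45.2 CPM against 8.62, 13.9 and 17.8 CPM in the low and 6.74, 16.1 and 18.8 CPM in the high clones. Atf4 itself was at 452 CPM against 145, 199 and 276 CPM in the low and 148, 185 and 420.4 CPM in the high clones. By contrast Hspa5, the main chaperone of the endoplasmic reticulum, was at 1024 CPM against 815, 968 and 1225 CPM in the low and 819.6, 1000 and 1681 CPM in the high clones. Ddit3, which encodes CHOP, was at 21 CPM against 13.2, 18.6 and 29.7 CPM in the low and 16.1, 21.9 and 28.8 CPM in the high clones. Hspa5 and Ddit3 thus lay inside the range of the low clones. Of the 13 genes on the unfolded protein response list, 5 had an unadjusted p under 0.05 in the higher direction against the low clones (Atf4, Dnajb9, Trib3, Chac1 and Asns; 4.04% of all genes) and 4 against the high clones (2.15% of all genes), none in the lower direction, with medians of 0.31 and 0.10 where all genes had -0.15 and -0.15. Without yfp_6556c4, the high clone whose heart-free library was most like yfp_7062c3, edgeR called Psat1 and Atf5 higher and Auts2 lower against the remaining high clones. In these genes yfp_6556c4 was the high clone nearest to yfp_7062c3 (Psat1 137, Atf5 107 and Auts2 4.27 CPM), so leaving it out widens the gap in advance. Leaving out any other single high clone gave 0 calls. The calls without yfp_6556c4 are therefore not read as support.

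The promoters of 7 of these genes, Atf4, Atf5, Asns, Chac1, Trib3, Psat1 and Mthfd2, were searched on both strands for TGATGNAAN, the form in which the composite C/EBP and ATF element bound by ATF4 is written here. In the window from 250 bases before to 50 bases after the gene start, 3 of the 9 windows that the RefSeq table for GRCm38.p6 gives for these genes held 1 match each. Of all 32851 windows of that length in the table, 1299 held it (3.95%). The genes were chosen for their link to ATF4 and their values, so the shares were not compared. The windows of Atf4, Atf5, Psat1 and Mthfd2 held no match, although these genes also carry higher values above. The 3 windows with a match are printed 5′ to 3′ on the gene's own strand, with the match in capitals. In Asns (chr6:7693160-7693459, minus strand) it lies from -23 to -15 relative to the gene start, on the gene's strand. In Chac1 (chr2:119350992-119351291, plus strand) it lies from -194 to -186 and reads on the opposite strand, as it does in Trib3 (chr2:152344011-152344310, minus strand) from 14 to 22.
Asns: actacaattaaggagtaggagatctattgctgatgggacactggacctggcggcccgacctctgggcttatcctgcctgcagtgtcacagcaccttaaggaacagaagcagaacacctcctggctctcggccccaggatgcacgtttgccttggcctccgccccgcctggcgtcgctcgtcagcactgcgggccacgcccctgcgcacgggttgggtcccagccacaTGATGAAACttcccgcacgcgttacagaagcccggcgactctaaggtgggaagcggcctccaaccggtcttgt
Chac1: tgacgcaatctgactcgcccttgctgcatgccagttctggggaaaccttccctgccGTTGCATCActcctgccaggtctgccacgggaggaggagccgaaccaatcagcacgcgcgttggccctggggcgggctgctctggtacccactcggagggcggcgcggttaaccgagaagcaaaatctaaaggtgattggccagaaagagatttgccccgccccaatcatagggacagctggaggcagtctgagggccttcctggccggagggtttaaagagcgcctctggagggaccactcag
Trib3: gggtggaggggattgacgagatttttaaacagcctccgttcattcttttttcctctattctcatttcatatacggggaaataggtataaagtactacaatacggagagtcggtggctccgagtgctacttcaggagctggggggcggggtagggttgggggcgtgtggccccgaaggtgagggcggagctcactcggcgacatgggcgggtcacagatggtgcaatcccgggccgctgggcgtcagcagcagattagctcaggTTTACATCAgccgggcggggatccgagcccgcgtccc
A match describes these letters and is not evidence that a factor was bound.

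Other genes at the top by rank against the low clones had varied roles. Htra3, a secreted serine protease, was at 77.4 CPM in yfp_7062c3 and 3.05, 4.07 and 9.65 CPM in the low clones (4.05 ± 0.65, adjusted p = 0.315, DESeq2 adjusted p = 0.00539), above every low clone. Ercc1, a part of a DNA repair nuclease, was at 79.4 CPM against 20.4, 28.6 and 36.5 CPM in the low and 25.3, 31.6 and 46.8 CPM in the high clones. Akirin2, a nuclear factor of the innate immune response, was at 107 CPM against 34.6 to 58.3 CPM. Rin1, a Ras effector, was at 145 CPM against 52.6 to 84 CPM. All of these values are above the whole range of the low clones.

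On the lower side, 6 of the 8 genes picked by rank lie on mouse chromosome 11, which holds 1532 of the 18413 genes tested (8.32%). This count was made after their positions were seen and was not tested. Fmnl1, a formin that shapes actin, was at 23.1 CPM in yfp_7062c3, at 53.9, 70.8 and 114 CPM in the low clones and at 56.7, 61.9 and 71.7 CPM in the high clones (-1.77 ± 0.41 against low, adjusted p = 0.488, DESeq2 adjusted p = 0.00646). The helicase gene Helz was at 38 CPM against 68.7, 86.6 and 117 CPM in the low clones. Prpf8, the core of the spliceosome, was at 256 CPM against 384, 472 and 509.7 CPM. Tob1, which restrains growth, was at 30.5 CPM against 55.9, 80.7 and 98.7 CPM. In yfp_7062c3 each of these lay below every low clone. Scrn2 (3.95 CPM in yfp_7062c3, 8.23 to 22.9 CPM in the high clones) and Sgsm2, a regulator of small GTPases (21.1 CPM against 31.5 to 62 CPM), ranked against the high clones. Outside chromosome 11, Auts2, a nuclear factor of brain development on chromosome 5, was at 0.439 CPM in yfp_7062c3, 19.2, 48.3 and 97.9 CPM in the low clones and 4.27, 69.9 and 85.8 CPM in the high clones (-7.11 ± 1.64 against high, adjusted p = 0.706). Of the T cell low and T cell high clones, yfp_6556c4 was the nearest at 4.27 CPM. The heart-free library of the intermediate clone yfp_6422c5 was lower than yfp_7062c3, at 0.1361 CPM against 0.437 CPM with TMM factors set over single libraries. Thnsl1, on chromosome 2, was at 4.12 CPM against 7.12 to 20.2 CPM in the high clones, where yfp_6556c4 again held the lowest value.

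The genes Cdkn2a and Cdkn2b, which encode cell cycle inhibitors often deleted in pancreatic cancer, were close to 0 in yfp_7062c3. Cdkn2a was at 0.555 CPM in yfp_7062c3, at 0.0295, 344 and 462 CPM in the low clones and at 0.208, 438 and 777 CPM in the high clones. Cdkn2b was at 0.0877 CPM against 0.147, 96.1 and 131 CPM in the low and 0.104, 107 and 190.0 CPM in the high clones. The low clones yfp_6694c2 and yfp_6556c3 and the high clone yfp_6556c4 were near 0 as well, with 0.0295, 0.093 and 0.208 CPM of Cdkn2a. These are the 3 clones whose heart-free libraries were most like yfp_7062c3. Mtap, a neighbour that salvages adenine and methionine, was present, at 983 CPM in yfp_7062c3, 773 CPM in yfp_6556c3, 755 CPM in yfp_6556c4 and 149 CPM in yfp_6694c2, over ranges of 121 to 773 CPM in the low and 198 to 755 CPM in the high clones. The 3 genes lie in one stretch of chromosome 4 (GRCm38, GENCODE M21): Mtap from 89137122 to 89181081, Cdkn2a from 89274471 to 89294653 and Cdkn2b from 89306299 to 89311039. RNA counts alone do not show whether the DNA is deleted.

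**Figure D4:**
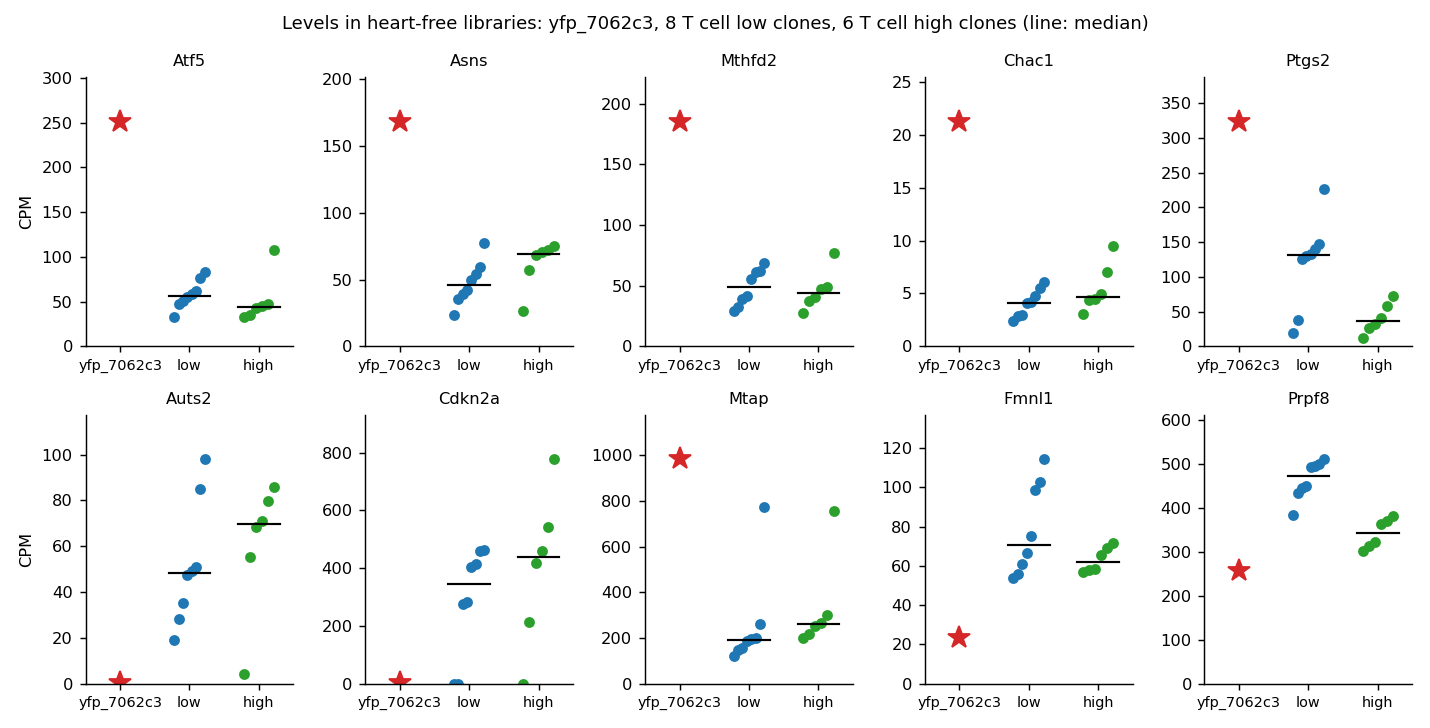
Level in CPM, on a linear axis from 0, of 10 genes in yfp_7062c3 (star) and in the 8 T cell low and 6 T cell high clones of heart-free libraries, 1 point per clone with a line at the median. In yfp_7062c3 Atf5 (250.5 CPM), Asns (168 CPM) and Mtap (983 CPM) stand above every classified clone and Fmnl1 (23.1 CPM) below every one, while Cdkn2a (0.555 CPM) is near 0 beside clones of either class that are near 0 too.

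Among genes for ligands and for enzymes that make signals to other cells, none passed the threshold in yfp_7062c3, and single genes lay on either side of the classified clones. Ptgs2 was at 323 CPM in yfp_7062c3, at 19.2, 132 and 226 CPM in the low clones and at 12.7, 36.5 and 72.7 CPM in the high clones, above all of them (1.43 ± 0.81 against low, unadjusted p = 0.0993). Of the 9 genes of the epidermal growth factor family, 2 had an unadjusted p under 0.05 in the higher direction against the low clones (4.04% of all genes) and none in the lower. The ligand gene Areg was at 187 CPM against 10.5, 33 and 112 CPM in the low and 9.57, 38.5 and 86 CPM in the high clones. Hbegf was at 610.5 CPM against 85.8, 187 and 520.3 CPM in the low and 95.6, 160.1 and 386 CPM in the high clones. The Notch ligand gene Jag1 was at 799.9 CPM against 93.6, 160.0 and 505 CPM in the low and 102, 199 and 656 CPM in the high clones. Nt5e, which makes adenosine, was at 469 CPM against 69.2, 149.9 and 339.5 CPM in the low and 77.5, 112 and 341 CPM in the high clones. Tgfb1 was at 365 CPM against 46.8, 146 and 251 CPM in the low and 112, 146 and 268 CPM in the high clones. Lgals9, an inhibitory galectin, was low, at 36.4 CPM against 62, 119.8 and 190.1 CPM in the low and 65.7, 134 and 159 CPM in the high clones. Areg was chosen after its value was seen.

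Class I and interferon genes did not stand high in yfp_7062c3. The class I list had a median of -0.75 against the low and -0.59 against the high clones, and the interferon list -0.23 and -0.37, with none called. Psmb10 was at 23.4 CPM in yfp_7062c3, 24.4, 45 and 58.7 CPM in the low clones and 36.6, 52.1 and 68 CPM in the high clones. Irf1 was at 38.5 CPM against 44.3, 64 and 79.8 CPM in the low and 53.3, 83.6 and 90.6 CPM in the high clones. All 7 MHC class II genes lay below every high clone, as 18.7% of all genes did, summing to 80.8 CPM in yfp_7062c3, 23.5, 103 and 390.3 CPM in the low clones and 190.2, 542 and 1315 CPM in the high clones. Cd74, their chaperone, was at 33.2 CPM against 9.91, 45.8 and 178 CPM in the low and 110.0, 254 and 567 CPM in the high clones. Leukocyte genes summed to 96.2 CPM in yfp_7062c3, 26.5, 77.7 and 267 CPM in the low clones and 29.8, 221 and 417 CPM in the high clones, with none of 10 outside the range of the high clones. Macrophage genes summed to 938 CPM in yfp_7062c3, 452, 717 and 3543 CPM in the low and 351, 3496 and 7150 CPM in the high clones. The part of leukocyte RNA in the class II values was not tested.

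Epithelial genes were toward the low end in yfp_7062c3, with a list median of -0.90 against the low clones and -1.84 against the high clones, where 15 of 20 lay below every high clone (18.7% of all genes) and 7 had an unadjusted p under 0.05 in the lower direction (3.68% of all genes). Krt18 was not low, at 2518 CPM against 832, 1824 and 2448 CPM in the low and 1630, 1934 and 3127 CPM in the high clones. Krt19, the keratin of ducts, was at 715 CPM against 702, 1313 and 1636 CPM in the low and 952, 1563 and 2962 CPM in the high clones, below every high clone. Fibroblast genes summed to 331 CPM in yfp_7062c3, near the lowest of the low (251, 948 and 6071 CPM) and of the high clones (301, 517 and 17880 CPM). Tnnt2, a heart troponin, was at 748 CPM in yfp_7062c3 against 10.1, 128 and 342 CPM in the low and 43.9, 87 and 541 CPM in the high clones, with the defining heart genes at 0.02677 CPM together.

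A list of 12 genes held those by which the classified clones had differed by class in earlier results of these data. In yfp_7062c3, 8 of them lay inside the range of the low clones, Ptgs2 above it and Tex2, Pde7a and Vps54 below it. Of all genes, 14.3% lay above every low clone and 15.8% below every one. As many of the list, 8, lay inside the range of the high clones, with Ptgs2 and Ell2 above it and Trpv4 and Vps54 below it. The shares of all genes were 15.9% above every high clone and 18.7% below every one. Cldn7, a tight junction gene, was at 27.1 CPM in yfp_7062c3, 2.06, 10.9 and 31.3 CPM in the low clones and 16.7, 140.5 and 257 CPM in the high clones. The channel gene Trpv4 was at 9.85 CPM against 2.94, 6.93 and 14.7 CPM in the low and 11.3, 53.8 and 97 CPM in the high clones. Fes, a kinase, was at 15.2 CPM against 4.17, 9.11 and 18.8 CPM in the low and 8.34, 47.8 and 62.4 CPM in the high clones. Gstt2, a glutathione transferase, was at 5.88 CPM against 0.464, 1.36 and 6.12 CPM in the low and 5.11, 21 and 31.1 CPM in the high clones. Stmn2, a nerve tubulin regulator, was at 0.0877 CPM against 0.031, 0.147 and 1.37 CPM in the low and 0.0371, 34 and 199.9 CPM in the high clones. Tex2 (44.4 CPM, low clones 63.7 to 92.8 CPM, high clones 40.2 to 49.8 CPM), the phosphodiesterase gene Pde7a (19.2 CPM, low 36.1 to 51.5 CPM, high 18.8 to 36.8 CPM) and Vps54 (30.9 CPM, low 41.2 to 53.8 CPM, high 32.7 to 37.3 CPM) were the 3 below every low clone. The elongation factor gene Ell2 was at 65.6 CPM, with 46.8 to 69.5 CPM in the low and 24.9 to 49.9 CPM in the high clones. Bmf, which promotes cell death, was at 52.2 CPM, with 43 to 81 and 21.8 to 123 CPM. H2-M2 was near 0, at 0.322 CPM in yfp_7062c3 against 0.0295, 0.346 and 1.67 CPM in the low and 0.208, 3.84 and 5.42 CPM in the high clones. In yfp_6883c1 and yfp_6883c4, Vps54 in yfp_6883c1 against the high clones was the one call over this list. Because the list was made from the same classified clones, no count over it supports a place in either class.

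Set against yfp_6556c4 tumour 2, its nearest library, yfp_7062c3 had 117 genes at least 2-fold higher (1.09%) and 296 at least 2-fold lower (2.76%) of 10736 genes with at least 5 CPM in either, with no replicate check. Ptgs2 was at 322.7 CPM in yfp_7062c3 and 72.7 CPM in yfp_6556c4. Arg1 and Lyz2, which macrophages make, were at 56.4 and 177 CPM in yfp_7062c3 and at 8.13 and 35.3 CPM in yfp_6556c4. On the lower side, the T cell attractant Cxcl9 was at 1.84 CPM in yfp_7062c3 and 24.8 CPM in yfp_6556c4, and the gut homeobox gene Nkx2-3 at 1.61 and 23.1 CPM. These genes were chosen after their values were seen.

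Median levels by chromosome lay outside all 14 classified clones of the same kind for 5 of 20 chromosomes in yfp_6883c1, 1 in yfp_6883c4 and 5 in yfp_7062c3. Classified clones also lay outside the other 13, for 0 to 8 chromosomes in heart-bearing libraries (8 in yfp_6499c3) and 1 to 7 in heart-free libraries (7 in yfp_2699c4), so such counts are not particular to the clones without class. For each clone, the median was taken over the genes of a chromosome of the log2 difference from the mean of the low clones. In yfp_7062c3 chromosome 11 (920 genes) had a median of -0.401, below the low clones (-0.215 to 0.176) and the high clones (-0.291 to 0.082). Chromosome 19 (408 genes) had 0.478, above the low (-0.164 to 0.211) and the high clones (-0.344 to 0.254), and chromosomes 4 (0.362), 7 (0.28) and 9 (0.22) were above all clones as well. In yfp_6883c1 chromosomes 12 (-0.321) and 16 (-0.386) lay below and 4 (0.147), 9 (0.184) and 10 (0.119) above every classified clone. In yfp_6883c4 chromosome 6 was the one outside, at -0.163 beside a lowest classified clone of -0.159. Medians over all genes were 0.032 in yfp_6883c1, -0.03 in yfp_6883c4 and 0.006 in yfp_7062c3.

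**Figure D5:**
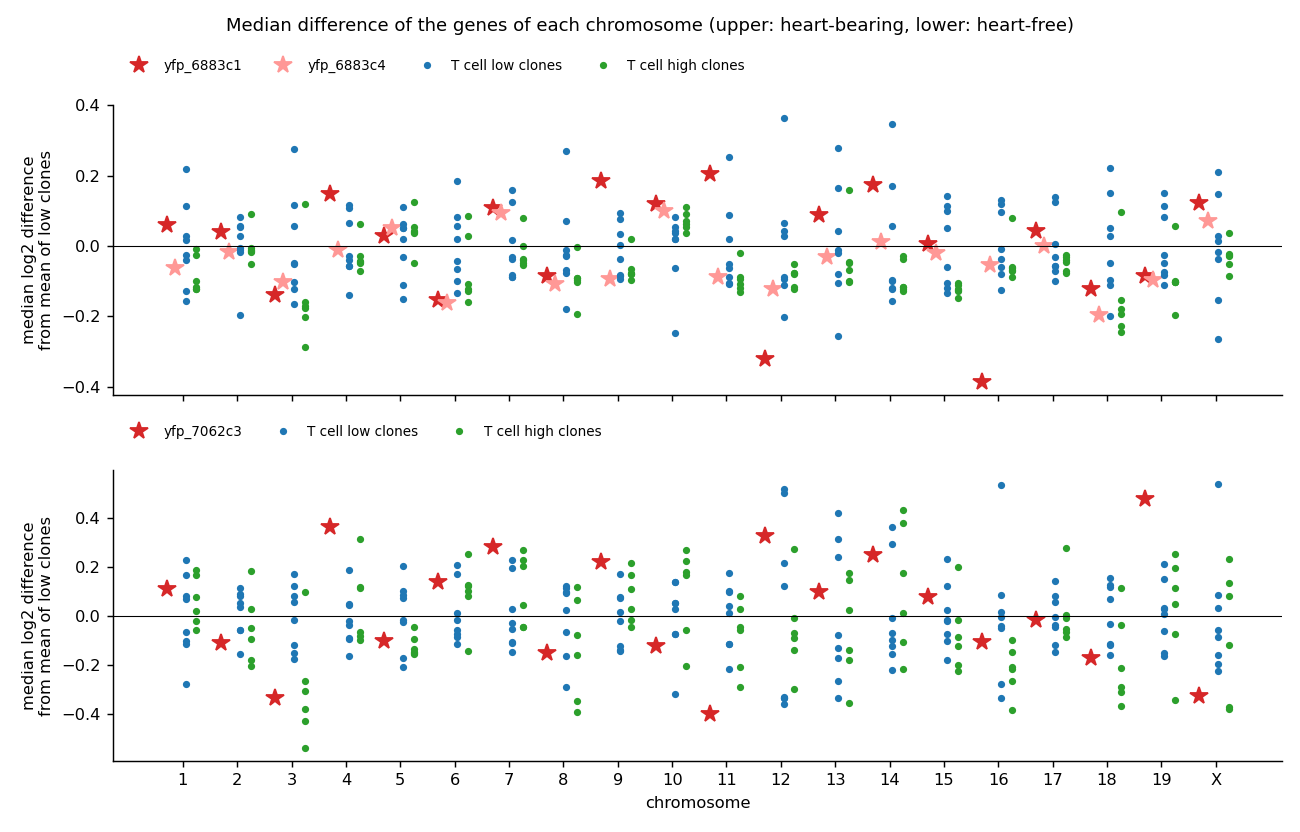
Median log2 difference from the mean of the T cell low clones over the genes of each chromosome, in each clone without class and in the classified clones of the same kind of library. In yfp_7062c3 chromosome 11 (-0.401) lies below and chromosome 19 (0.478) above every classified clone, and in yfp_6883c1 chromosomes 12 (-0.321) and 16 (-0.386) lie below.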

How the data were processed

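The authors deposited raw counts as whole numbers, 39017 genes by 39 libraries. STAR, featureCounts and mm10 are the tools and build that the submitters' processing notes name. Neither their versions nor the annotation and the strand setting are given in the sources used here, so reads of overlapping, antisense or near-identical genes may be shared. Gene locations are those of GENCODE M21, which held 37693 of the identifiers. Where 214 rows repeated a symbol, the most abundant row was kept.

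Libraries were divided by the summed CPM of Myh6, Myh7, Myl2 and Mb at 10 CPM. Within a kind, counts were summed per clone, and T cell low clones, T cell high clones and each clone without class formed groups of one fit (filterByExpr, TMM, quasi-likelihood test, edgeR 4.0.16 under R 4.3.3, Benjamini-Hochberg adjusted p under 0.05). Residual degrees of freedom were 12. A clone without class is 1 library and is assumed to vary like the classified clones. The labels do not say that libraries came from separate animals, so p-values measure the spread between these clone sums, which may in part be technical. Levels are CPM scaled with TMM factors. Alternatives used DESeq2 1.42.0, limma 3.58.1, other scaling and filtering, single libraries, intermediate clones, both kinds together, the heart sum as a covariate and the omission of each clone. The fits were tested on simulated data.

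Genes were named by rule: those of smallest p per direction with at least 5 CPM (10 per direction against the low and 5 against the high clones, 5 where few were called), the called members of each of 43 gene lists or their most abundant 2, and the class-difference list. H2-K1, H2-D1, B2m, Cdh1, Krt19, Dsp, Zeb1, Nefl, Reg3b, Asns, Trib3, Atf4, Ddit3, Dnajb9, Cdkn2b, Areg and the genes of the pairs of single libraries were named after their values were seen. The members and the lists were chosen with earlier results of these data known. The 4 libraries of intermediate clones enter the alternatives and the likeness values only.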

Additional observations from a re-analysis of the deposited data

Results flagged for a closer look

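For the named genes, 1 clone stood far from the other clones of its own class in 29 of 248 groups tested, where the gap to the nearest clone divided by the range exceeded Dixon's 95% value. Chance alone would mark about 1 in 20 groups if they were independent and normally spread. These groups share clones, and many of their genes were named for their values, so the count was not compared with that rate. All of them are classified clones, which set the spread that the clones without class are tested against. Among heart-free T cell high clones, yfp_6556c4 stood apart in 8 genes: Atf5 (107.3 CPM, others 32.5 to 47.61 CPM), Atf4 (420.4 CPM, others 147.7 to 213 CPM), Auts2 (4.272 CPM, others 55.09 to 85.76 CPM), Thnsl1 (7.121 CPM, others 14.85 to 20.16 CPM), Cdkn2a (0.2084 CPM, others 213.2 to 776.7 CPM), Cdkn2b (0.1042 CPM, others 72.53 to 190 CPM), Mtap (754.6 CPM, others 198.4 to 301.1 CPM) and Lgals9 (65.72 CPM, others 128.4 to 158.7 CPM). In each of these, yfp_6556c4 was the high clone nearest to yfp_7062c3. Others in that class were Asns in yfp_2838c3 (26.24 CPM, others 57.6 to 75.19 CPM) and Tob1 in yfp_6555c3 (41.1 CPM, others 56.06 to 66.86 CPM). Among heart-free T cell low clones they were H2-K1 in yfp_6421c2 (2257 CPM, others 223.4 to 634.4 CPM), Htra3 in yfp_6694c2 (9.648 CPM, others 3.053 to 5.38 CPM) and Mtap in yfp_6556c3 (773.2 CPM, others 121 to 262.3 CPM). Among heart-bearing T cell low clones they were Syt13 in yfp_6499c3 (1.633 CPM, others 6.377 to 12.94 CPM), Pla2g7 in yfp_6422c1 (41.87 CPM, others 60.57 to 81.49 CPM), Perp in yfp_6694c2 (66.73 CPM, others 96.31 to 124.7 CPM), Psmb10 in yfp_6422c1 (48.55 CPM, others 23.15 to 32.24 CPM), Pdgfrb in yfp_6499c3 (11.75 CPM, others 30.75 to 67.75 CPM), Isx in yfp_6419c1 (0.1703 CPM, others 0 to 0.02848 CPM) and Nefl in yfp_2699c4 (1.082 CPM, others 0 to 0.345 CPM). Among heart-bearing T cell high clones, yfp_2838c3 stood apart in Mboat1 (117.2 CPM, others 137 to 146.7 CPM), Ifit2 (9.5 CPM, others 5.745 to 6.819 CPM), Notch2 (354 CPM, others 236.7 to 261.7 CPM), H2-D1 (455.8 CPM, others 587 to 638.9 CPM) and Zeb1 (73.56 CPM, others 43.45 to 52.12 CPM), and the others were Psme2 in yfp_7160c2 (64.89 CPM, others 48.17 to 52.47 CPM), B2m in yfp_7160c2 (409.5 CPM, others 227.7 to 272.4 CPM), Ppp1r3b in yfp_7160c2 (45.28 CPM, others 25.07 to 27.93 CPM) and Prom1 in yfp_7160c2 (378 CPM, others 75.95 to 124.6 CPM).

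In 5 genes the clones without class lay on opposite sides of the low clones of their own kind, and none of these differences between clones was tested. Psmb10 was above them in yfp_6883c1 (64.58 CPM, low clones 23.15 to 48.55 CPM) and below them in yfp_7062c3 (23.45 CPM, low clones 24.4 to 58.74 CPM). Irf1 was above in yfp_6883c1 (111.8 CPM, low clones 36.63 to 55.53 CPM) and below in yfp_7062c3 (38.51 CPM, low clones 44.26 to 79.75 CPM), and Vps54 likewise (66.86 CPM in yfp_6883c1, low clones 40.5 to 53.06 CPM; 30.93 CPM in yfp_7062c3, low clones 41.22 to 53.76 CPM). Krt18 was below in yfp_6883c1 (1180 CPM, low clones 1245 to 3010 CPM) and above in yfp_7062c3 (2518 CPM, low clones 832.2 to 2448 CPM). Ptgs2 was below in yfp_6883c1 (30.58 CPM) and yfp_6883c4 (43.82 CPM, low clones 58.99 to 192.7 CPM) and above in yfp_7062c3 (322.7 CPM, low clones 19.17 to 226.2 CPM).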

How the results depend on the processing

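No named gene that was called changed sign under any alternative run. The counts of called genes moved. In yfp_6883c1 against the low clones, 376 with edgeR, DESeq2 called 674, the log2 heart sum as a covariate gave 828 (682 higher, 146 lower), the linear heart sum 781 and clones under 4000 CPM of heart RNA 22. The last 2 settings were chosen after seeing the data. Leaving out 1 low clone gave 276 to 629. Against the high clones, 306 with edgeR, DESeq2 called 603, limma 186, the fit of all libraries of both kinds 172, the log2 heart sum 734 and the limit of 4000 CPM 0, and leaving out 1 high clone gave 167 to 268. In yfp_6883c4 against the low clones the count of 1 became 5 with DESeq2, 5 with limma, 3 with both kinds together, 2 with the linear heart sum and 0 under 4000 CPM (643 at an unadjusted p under 0.05), and leaving out 1 low clone gave 1 to 4. Against the high clones it became 6 with DESeq2, 4 with limma, 4 with both kinds, 3 with either heart covariate and 0 under 4000 CPM (210 at an unadjusted p under 0.05). In yfp_7062c3 the count of 0 against the low clones became 103 with DESeq2, 1 (Htra3) with each library as a replicate and 267 with both kinds, and against the high clones 24 with DESeq2, 716 with both kinds and 0 to 3 when 1 high clone was left out. The cause was not tested. In the fit of both kinds, yfp_7062c3 is also set against heart-bearing libraries. DESeq2's size factors, no filter on low counts and added intermediate clones left the total counts within 1.5 times, but without the filter the lower calls in yfp_6883c1 were 6 against the low clones (31 with it) and 2 against the high clones (13 with it). Of 71 genes named in heart-bearing libraries, those that stopped passing in yfp_6883c1 numbered 0 with DESeq2 or the log2 heart covariate in either comparison. Against the low and the high clones they numbered 21 and 24 with both kinds, 32 and 40 under 4000 CPM, 9 and 11 without the filter, 4 and 9 with limma, and 0 to 4 and 5 to 11 when 1 clone was left out. No paired analysis was possible because each clone without class has 1 library, so the groups share fewer than 2 tumour numbers. Values under 1 CPM rest on few counts, and each clone without class is 1 library.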
